A study of Mus musculus with 9 samples.

Results

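Mature oligodendrocytes were picked out of single-cell transcriptomes of mouse brain by a fixed marker rule, and 1413 of 64617 kept barcodes met it. The rule asked for at least 1 UMI (a counted RNA molecule) in 4 or more of the 7 genes Mog, Mag, Ermn, Cldn11, Opalin, Ugt8a and Gjc3, and for UMIs in fewer than 3 of the 5 precursor genes Gpr17, Neu4, C1ql1, Pdgfra and Cspg4. Barcodes were kept when they held 200 to 6000 genes and had under 15% of their UMIs in mitochondrial genes, among the 10000 barcodes with the most UMIs in each library. The members were thus chosen by measured UMIs of these 12 genes. The rule was written with results of these data known, and the levels of its 12 genes are given as a description and are not tested.

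The series holds 10x 5′ libraries of 9 mice aged 6 to 8 weeks. The 5 tumor mice (NestinCreERT2;Fus1) carried EP ZFTA-RELA, an ependymoma driven by a fusion gene, and the 4 control mice (NestinCreERT2;TdT) gave normal brain. Both groups share the Nestin-driven, tamoxifen-inducible Cre allele, which recombines in embryonic radial glia, so that the fusion in tumor mice and the tdTomato reporter in control mice can pass to the descendants of those cells, oligodendrocytes among them. Tumor was dissected from the brain, and a note of the study on cell preparation describes brain of the matching region in animals without tumor. The region of each library is not given in the sources used here. Fewer cells of a type cannot be told apart from lower recovery of them.

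Oligodendrocytes wrap axons in myelin, a compacted membrane built from proteins such as Mbp and from cholesterol and galactolipids made in the same cell. They arise from Pdgfra-positive precursors through a newly formed stage marked by Bcas1, Enpp6 and Gpr17, and mature cells then fall into states marked by genes such as Klk6, Ptgds, Apod and Il33. In injured, aged and diseased brain a further state is known, marked by Serpina3n, C4b, Il33, Sgk1, Cdkn1a and genes of MHC class I.

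The control libraries held 88, 368, 227 and 348 members, and the tumor libraries held 116, 130, 47, 53 and 36. In tumor libraries the summed level of a list of 25 compact myelin genes outside the rule was 35209 to 76019 UMIs per 1000000 UMIs (CPM) of the members' RNA, against 2191 to 16212 CPM in the free RNA of the same libraries. Free RNA was measured in the 3000 deposited barcodes with the fewest UMIs of each library. These held a median of 691 to 1338 UMIs in controls and 559 to 649 in tumors. The deposit held no barcode under 468 UMIs, so cells among them cannot be told apart from free RNA. In tumor replicate 3 all 9001 deposited barcodes were considered and 6698 were kept, so some kept barcodes lie among its 3000. The label held in tumor libraries other than replicate 4. Members of that library had such myelin RNA together with high levels of newly formed genes. They also had low levels of most mature subtype genes, Il33 among them, given below. In control libraries the label held for few members: the members as a whole reached 10955 to 22537 CPM of the myelin list, and a list of 8 neuron genes (Gad1, Snap25, Stmn2, Slc17a7, Nrgn, Syt1, Rbfox3 and Meg3) was at 9834 to 12585 CPM, against 7021 to 7545 CPM in their free RNA. The higher pooled level came from a minority: the median control member held 0.592% to 0.689% of its UMIs in the neuron list, below the free RNA of its library, and 393 of the 1031 lay above it. The neuron list was at 85.8 to 982 CPM in the tumor members, so the groups did not overlap in it.

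Most control barcodes that met the rule thus had a low myelin content, under 2% of UMIs in 938 of 1031, with neuron RNA around the level of the free RNA or above it, and they are called members by the marker rule below. A stricter set, chosen after these levels were seen, kept members with at least 2% of UMIs in the myelin list and under 0.5% in the neuron list. It held 18, 23, 17 and 17 control barcodes and 112, 129, 39, 48 and 29 tumor barcodes, 432 in all, and is called the myelin-rich members. The myelin and neuron lists chose this set. Their genes stayed in the fit across all genes, where 5 of 31 passed (Cnp and 4 neuron genes), and nothing is read from these calls. Scaled on the neuron list, free RNA made up an expected 37.2% to 46.7% of the UMIs of the control myelin-rich members and 4.88% to 16.7% of the tumor ones.

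**Figure D1:**
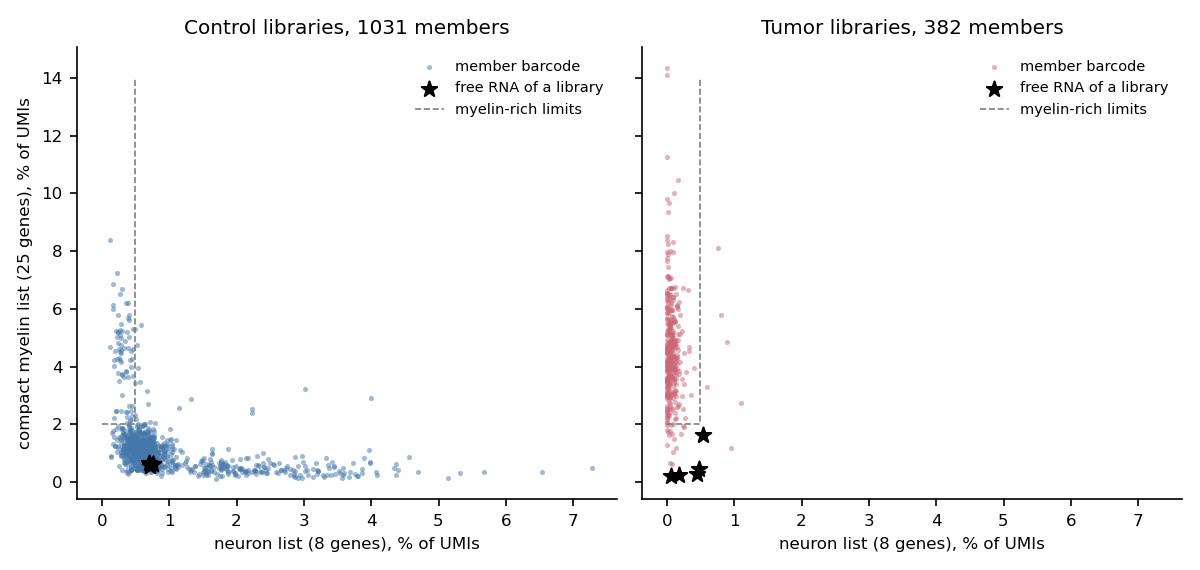
Each point is 1 member barcode, with the percent of its UMIs in the 8 neuron genes (x axis) and in the 25 compact myelin genes (y axis), for the control libraries (left) and the tumor libraries (right). Stars mark the free RNA of each library and dashed lines the limits of the myelin-rich members. Of the 1031 control points 938 lie below 2% myelin and 393 to the right of the star of their library, while 357 of the 382 tumor points lie inside the limits.

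The threshold cut the control barcodes through a dense region. With exactly 4 of the 7 markers there were 65, 243, 157 and 248 control members and 10, 14, 18, 27 and 12 tumor members. Just outside, with 3 of 7, lay 268, 696, 422 and 588 control barcodes and 5, 8, 25, 31 and 36 tumor barcodes. The median myelin content of control barcodes was 0.85% to 1.05% just inside and 0.508% to 0.624% just outside, and that of tumor barcodes was 2.51% to 3.97% just inside and 1.05% to 4.21% just outside. In tumor replicate 4, 27 barcodes with enough markers were left out for 3 or more precursor genes and 27 of its 53 members carried 2 of them, against at most 7 such members in any other library.

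Members held a median of 1911 to 3361 UMIs in control libraries and of 2082 to 6571 in tumor libraries, the highest in tumor replicate 4. In 8 libraries with usable barcode lists, 1 barcode was shared among 1065 members. In tumor replicate 3 a list of erythroid genes was at 21622 CPM in the members, and 6 members had no UMI of the nuclear RNA Malat1. In tumor replicate 5 a microglia and macrophage list was at 4139 CPM, against 266 to 537 CPM in every other library. A tumor progenitor and cycling list was at 1961, 1030 and 969 CPM in tumor replicates 4, 2 and 5, against 95.3 to 165 CPM in all the other libraries, controls included. The part of these lists in the results below was not tested beyond leaving each library out.

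The first comparison asked whether mature oligodendrocytes made up a different share of the barcodes in tumors. Members were 1.08%, 4.95%, 3.53% and 4.87% of kept barcodes in controls and 4.08%, 2.18%, 0.702%, 0.53% and 0.36% in tumors, and the groups overlapped. The mean was 3.61% ± 1.81 (SD, n = 4) in controls and 1.57% ± 1.58 (SD, n = 5) in tumors, a difference of -2.04 percentage points (two-sided exact permutation test, p = 0.127, where the design allows 0.0159 at the smallest). Over myelin-rich members the order turned, with 0.221%, 0.31%, 0.265% and 0.238% in controls and 3.94%, 2.17%, 0.582%, 0.48% and 0.29% in tumors. The groups then overlapped by 1 mouse, as tumor replicate 5 lay below control replicate 2 (difference 1.23 points). Without tumor replicate 1 this difference was 0.622 points, and over barcodes with fewer than 4 of the 8 neuron markers alone it was 0.597 points. It is not tested, since the limits of this set were chosen on the levels of these members. The direction of the share thus changed with how the members were cut from the control barcodes.

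**Figure D2:**
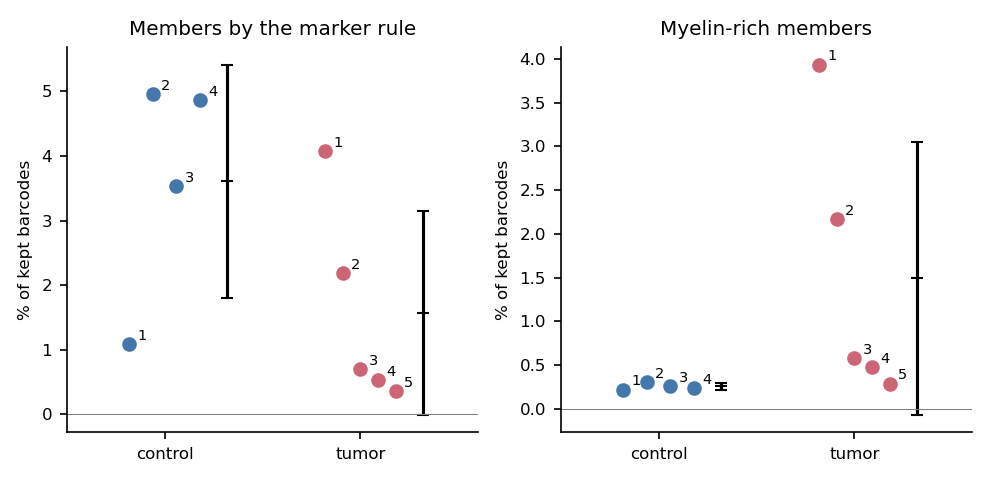
Percent of kept barcodes that met the marker rule (left) and that were myelin-rich (right), 1 point per mouse labeled by replicate, with the mean and SD of each group as bars. By the rule the controls ranged from 1.08% to 4.95% and the tumors from 0.36% to 4.08%. Myelin-rich members stayed at 0.221% to 0.31% in controls and spread from 0.29% to 3.94% in tumors.

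The rule's own genes chose the members, so their levels are given as a description and nothing is read from them. In myelin-rich members Mog, a surface myelin protein, was at 481, 315, 608 and 529 CPM in controls and 804, 772, 2089, 528 and 906 CPM in tumors. Opalin, a transmembrane protein of mature cells, was at 781, 629, 704 and 662 CPM in controls and 479.6, 218, 783, 168 and 209 CPM in tumors. Ermn, an actin-linked protein of late myelination, was at 1116 to 1478 CPM in controls and at 1835, 2085, 1673, 87.1 and 819 CPM in tumors. Both groups overlapped in all 3 genes, and tumor replicate 4 was lowest in Ermn. Gpr17, a receptor of cells about to myelinate, was at 0 CPM in 3 controls and 9.54 CPM in the other, and at 36.0, 25.2, 11.9, 432 and 95.8 CPM in tumors, with UMIs in 77.1% of the barcodes of tumor replicate 4.

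The second comparison asked which genes differed between tumor and control in the members and in the myelin-rich members, with counts summed per mouse and tested by edgeR's quasi-likelihood test with Benjamini-Hochberg adjustment. Of 7322 genes tested in the members, 3589 passed at an adjusted p below 0.05, which is 49.0% of those tested (1609 higher in tumor, 22.0%, and 1980 lower, 27.0%). With no filter on low counts the share was 27.3%. All 8 neuron genes fell, with a median log2 fold change of -4.05. In the myelin-rich members 265 of 2170 genes passed, or 12.2% (102 higher, 4.70%, and 163 lower, 7.51%), and 255 of these 265 also passed in the same direction in the members. The myelin-rich members are part of the members, 357 of 382 barcodes in tumors. Their overlap was thus largely fixed in advance and supports nothing. The free RNA itself differed between the groups: 45.2% of 11835 genes passed there, and 143 of the 265 passed in the same direction. With other settings the share of genes that passed in the myelin-rich members was 7.07% with no filter on low counts, 9.09% with the myelin limit at 3% and 7.18% after the expected free RNA was subtracted. The balance of directions turned with no filter (758 higher and 394 lower), and limma gave 35 higher and 159 lower. Counts on lists are therefore given for both sets, to be read beside these background shares, and values per mouse are those of the myelin-rich members.

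The filter on low counts asked 4 mice to reach 87.1 CPM in the myelin-rich members and 21.6 CPM in the members. Of the 102 genes higher in the tumor myelin-rich members 34 had no control at that level, and of the 163 lower ones 72 had no tumor at it (194 of 1609 and 559 of 1980 in the members). Such a gene entered the test through the group where it is high and had to differ, so its call is a description and supports nothing. Of the genes named below with a call, these were C4b, Cdkn1a, H2-D1, H2-K1, Fdps, Idi1, Gal3st1, Ddit4, Fos, Hist1h1c and Tmed2 (higher) and Pdha1, Nme7, Chchd10 and Zwint (lower) in the myelin-rich members. In the members they were Nkx2-2, Serpina3n, Plin4, Cdkn1a, Acot1 and Plekhf1 (higher) and Nme7, Penk and Cntnap5a (lower).

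Compact myelin genes chose the myelin-rich members, so their levels in both groups of that set are a description from which nothing is read. Their summed level was 50892, 41565, 51693 and 43781 CPM in controls and 48384, 45851, 78481, 37411 and 40552 CPM in tumors. Cnp, an enzyme of the uncompacted membrane, was at 1459 to 1909 CPM in controls and 2480 to 5503 CPM in tumors. In the members as a whole 21 of the 25 genes were higher in tumor and 0 were lower (median log2 fold change 1.72, against -0.05 over all genes tested), beside the low myelin content of most control members given above. There 22.0% of all genes tested were higher.

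Of the lineage transcription factors 7 of 9 tested passed as higher in the tumor members (Olig1, Olig2, Sox10, Sox8, Nkx2-2, Nkx6-2 and Myrf), beside the low myelin content of most control members, and 0 fell. Among all genes tested 22.0% were higher in the members. In the myelin-rich members 1 of 8 of these factors rose, where 12.2% of all genes passed. This was Olig1, which holds cells in the oligodendrocyte lineage. It was at 240.3, 229, 239 and 342 CPM in controls and 531, 640.3, 953, 756 and 523 CPM in tumors. Every tumor lay above every control, as was so for 7.93% of the genes tested in this set. The log2 fold change was 1.40 ± 0.27 (SE, adjusted p = 0.0070), and over 18 settings of this set the adjusted p ranged from 5.8e-05 to 0.0791, the latter after the expected free RNA was subtracted. Olig1 also differed in the free RNA, at 53.6 to 58.4 CPM in controls and 87.8 to 769 CPM in tumors. Myrf, the master regulator of myelin genes, was at 155 to 340 CPM in controls and 148 to 273 CPM in tumors.

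Newly formed oligodendrocyte genes stood out most in 1 tumor. In the members 7 of 8 tested genes rose and 0 fell (median log2 fold change 3.16), and in the myelin-rich members 3 of 4 rose, Enpp6, Fyn and Sirt2 (median 2.51, against 0.06 over all genes tested). Beside these counts, 22.0% of all genes tested were higher in the members and 4.70% in the myelin-rich members. Enpp6, a choline phosphodiesterase of premyelinating cells, was at 80.1, 105, 131 and 55.2 CPM in controls and 229.7, 263, 170.1, 1423 and 296 CPM in tumors. Every tumor was above every control, and tumor replicate 4 was far above the others. The log2 fold change of Enpp6 was 2.36 ± 0.68 (adjusted p = 0.043) with all mice and 1.36 ± 0.30 (adjusted p = 0.0044) without tumor replicate 4, and over 18 settings the adjusted p ranged from 3.2e-09 to 0.328. Without tumor replicate 4 Fyn (1.97 ± 0.47, adjusted p = 0.0073) and Sirt2 (1.64 ± 0.25, adjusted p = 0.00025) also passed as higher. Bcas1 did not (0.61 ± 0.30, adjusted p = 0.15).

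The same mouse led the list throughout. Fyn, a kinase that starts myelination, was at 59.7 to 140.2 CPM in controls and at 198, 417, 150.3, 2440.4 and 671 CPM in tumors. Bcas1, the usual marker of myelinating newly formed cells, was at 227 to 260.4 CPM in controls and at 182, 486, 423, 2555 and 401 CPM in tumors, and did not pass (adjusted p = 0.11). Bmp4, a secreted growth factor of early oligodendrocytes, had no UMI in the control myelin-rich members and was at 2.25, 5.40, 3.96, 339 and 61.0 CPM in tumors. The tumor mean of Bmp4 was at least 9.04-fold higher than the level of 3 counts over the controls, and at least 1.99-fold without tumor replicate 4. Summed over the list, the controls stood at 838 to 1082 CPM and the tumors at 1617, 2750, 1938.5, 15462 and 3180 CPM.

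Many genes of mature cells ran the other way in tumor replicate 4. It was the lowest tumor in 10 of 12 mature subtype genes and 18 of 25 compact myelin genes, and the highest in 2 of the former (Anxa5 and S100b) and 3 of the latter. In the newly formed list it was the highest in all 12. Mal, a proteolipid of compact myelin, was at 5767, 3538, 8486, 438 and 4087 CPM in tumors and 2260 to 3746 CPM in controls. Mobp was at 4195, 2606, 4071, 336 and 1682 CPM in tumors and 1202 to 2103 CPM in controls. The compact myelin genes, Mal and Mobp among them, chose this set, so their order among tumors is a description. Il33, a nuclear cytokine of mature oligodendrocytes, was at 455, 727, 546, 42.0 and 532 CPM in tumors and 391 to 651 CPM in controls. Leaving out tumor replicate 4 raised the number of genes that passed in the myelin-rich members to 454 of 1938, or 23.4%, and 247 of the 265 were among them. Trf, the iron carrier transferrin, then passed as higher in tumor (log2 fold change 1.07 ± 0.27, adjusted p = 0.0088), and it passed in 2 of 18 settings.

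**Figure D3:**
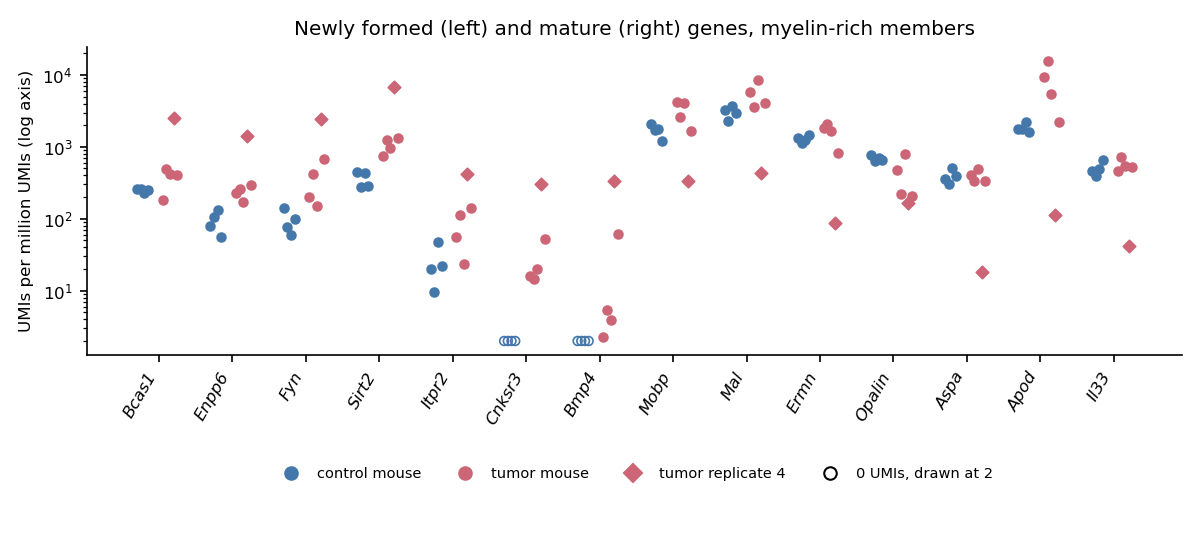
Level of 7 newly formed (left) and 7 mature (right) oligodendrocyte genes in the myelin-rich members, as CPM on a log axis, 1 point per mouse. Open circles are mice with 0 UMIs. Tumor replicate 4 (diamonds) is the highest tumor in the newly formed genes, such as Bcas1 at 2555, and the lowest in the 7 mature genes shown, such as Il33 at 42.0. Not shown are the mature subtype genes Anxa5 and S100b and 3 of 25 compact myelin genes, in which it is the highest tumor. Ermn and Opalin are genes of the rule, and Mobp, Mal and Aspa are of the list that chose this set.

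Of the genes that mark mature subtypes, 9 of 11 tested rose in the members (median log2 fold change 2.24), where 22.0% of all genes were higher. In the myelin-rich members 0 of 10 passed (median 0.90), where 4.70% of all genes were higher. Ptgds, the prostaglandin D synthase of a late subtype, was at 4707, 6541, 5774 and 7358 CPM in the control myelin-rich members and 33456, 18987, 29409.6, 3104 and 16276 CPM in the tumor ones. Apod, a lipid carrier of the same subtype, was at 1633 to 2183 CPM in controls and 9266, 15611, 5388, 114 and 2196 CPM in tumors. In both genes 4 tumors lay above all controls and tumor replicate 4 lay below them. Ptgds did not pass with all mice (log2 fold change 1.77 ± 0.55, adjusted p = 0.054) and passed without tumor replicate 4 (2.04 ± 0.32, adjusted p = 0.00036), and over 18 settings its adjusted p ranged from 4.8e-05 to 0.208. Apod likewise moved from 1.87 ± 0.88 (adjusted p = 0.16) to 2.18 ± 0.43 (adjusted p = 0.0020), within a range of 5.9e-07 to 0.757. The free RNA of Ptgds went the other way, at 2409 to 2879 CPM in controls and 302 to 1062 CPM in tumors. Klk6, which marks another mature subtype, was at 38.1 to 203 CPM in controls and 6.00 to 324 CPM in tumors.

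Several genes known from disease-associated oligodendrocytes were higher in the tumor mice in the members and in the myelin-rich part of them. In the members 9 of 10 tested rose and 1, Fxyd1, fell (median log2 fold change 3.98), where 22.0% of all genes tested were higher. Of the 9, Serpina3n, Plin4 and Cdkn1a entered that test through the tumors alone, so their calls in the members are a description. Over all genes tested in the myelin-rich members 4.70% were higher. In the myelin-rich members 4 of 6 rose (Sgk1, Cdkn1a, C4b and Cd9), 0 fell and Cd63 and Il33 did not pass (median 2.67, the same with Cdkn1a at its lower bound). Cdkn1a and C4b passed the filter on low counts through the tumors alone, so Sgk1 and Cd9 are the calls with controls at its level. Cd9, a tetraspanin, passed in 10 of 18 settings (adjusted p = 0.043 with all mice, at most 0.116), and tumor replicate 4 stood highest at 4956 CPM. Summed over the 12 genes, the controls stood at 1135 to 1478 CPM and the tumors at 2417 to 6711 CPM, without overlap. Among single genes tested in this set, 7.93% had every tumor above every control. In tumor replicate 4 Cd9 alone stood at the 4956 CPM given, while Sgk1, Cdkn1a, C4b, Serpina3n, Plin4 and Fkbp5 were each far lower there, as given below.

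Sgk1, a serum- and glucocorticoid-induced kinase that regulates ion channels, was at 100.1, 133, 35.8 and 55.2 CPM in controls and 1687, 1354, 739.8, 471 and 1725 CPM in tumors. Each tumor was above each control. The log2 fold change was 3.90 ± 0.52 (adjusted p = 0.0011) in the myelin-rich members and 5.03 ± 0.50 (adjusted p = 1.8e-05) in the members, and the gene passed in all 18 settings of the first (adjusted p at most 0.0282) and all 22 of the second. At least 1 UMI of Sgk1 was found in 11.1% to 34.8% of control barcodes and 61.5% to 98.2% of tumor barcodes. Free RNA held 22.8 to 38.4 CPM of it in controls and 35.7 to 76.4 CPM in tumors, and astrocyte-rich barcodes held 4.94 to 40.8 and 18.2 to 27.7 CPM.

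Cdkn1a, which encodes the cell cycle inhibitor p21, had no UMI in any of the 75 control myelin-rich members and stood at 1052, 1736, 31.6, 123 and 1255 CPM in tumors. Tumor replicates 1, 2 and 5 were high and replicates 3 and 4 low, with UMIs in 90.2%, 95.3%, 15.4%, 18.8% and 82.8% of their barcodes. The tumor mean was at least 92.1-fold higher than the level of 3 counts over the controls. In the members, where control libraries held 4.47 to 12.1 CPM, the log2 fold change was 6.78 ± 1.09 (adjusted p = 0.00031).

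C4b, a complement component, was at 60.1, 38.1, 23.9 and 11.03 CPM in controls and 272, 626, 138, 99.1 and 200.4 CPM in tumors, without overlap (log2 fold change 3.16 ± 0.70, adjusted p = 0.013; 0.323 at the most over 18 settings). Serpina3n, a secreted protease inhibitor, had no UMI in the control myelin-rich members and was at 78.8, 359.7, 7.91, 27.0 and 43.6 CPM in tumors, at least 11.4-fold higher than 3 counts over the controls and at least 4.32-fold without tumor replicate 2. It was too low for the filter in the myelin-rich set and rose in the members (4.27 ± 0.92, adjusted p = 0.0023). Plin4, a lipid droplet protein, was at 0 to 9.54 CPM in controls and 205, 167, 27.7, 6.00 and 227 CPM in tumors. Fkbp5, a co-chaperone of the glucocorticoid receptor, was at 0 to 20.0 CPM in controls and 126.1, 115, 3.96, 6.00 and 105 CPM in tumors. In Plin4, Fkbp5 and Cdkn1a alike, tumor replicates 1, 2 and 5 stood above 100 CPM and replicates 3 and 4 at 3.96 to 123 CPM. In the members Plin4 rose by 6.16 ± 1.03 (adjusted p = 0.00040) and Fkbp5 by 2.02 ± 0.65 (adjusted p = 0.021) on the log2 scale.

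**Figure D4:**
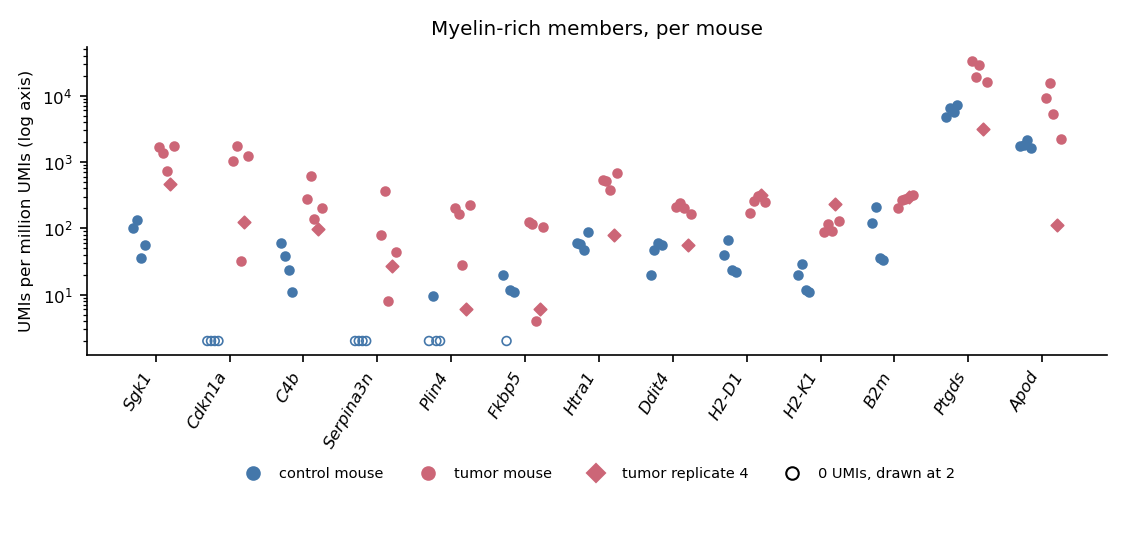
Level of 13 genes in the myelin-rich members, as CPM on a log axis, 1 point per mouse. Open circles are mice with 0 UMIs, and diamonds are tumor replicate 4. Sgk1, Cdkn1a, C4b, H2-D1 and H2-K1 have every tumor above every control, and Cdkn1a spans 31.6 to 1736 among tumors.

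Genes of MHC class I, which presents peptides of a cell's own proteins to CD8 T cells, also stood higher in tumors. Of 11 listed genes 4 were tested in the members, where H2-D1, H2-K1 and B2m rose (median log2 fold change 2.32), and 3 in the myelin-rich members, where H2-D1 and H2-K1 passed as higher, each with no control at the level of the filter (median 2.76). Over all genes tested the shares that were higher were 22.0% in the members and 4.70% in the myelin-rich members. H2-D1 was at 40.1, 66.7, 23.9 and 22.1 CPM in controls and 169, 263, 313, 315 and 253 CPM in tumors (2.76 ± 0.37, adjusted p = 0.0011; at most 0.0402 over 18 settings). H2-K1 was at 20.0, 28.6, 11.9 and 11.03 CPM in controls and 87.8, 117, 91.0, 234 and 131 CPM in tumors (2.85 ± 0.51, adjusted p = 0.0051; at most 0.123 over 12 settings). Every tumor lay above every control in both genes. They are near copies of each other and of further class I genes, so the division of reads between them is uncertain. B2m, the shared light chain, was at 120.2, 209.8, 35.8 and 33.1 CPM in controls and 200.4, 272, 273, 294 and 314 CPM in tumors (1.44 ± 0.45, adjusted p = 0.055). Free RNA held 22.3 to 35.4 CPM of H2-D1 in controls and 81.6 to 448 CPM in tumors (2.73 ± 0.47 on the log2 scale, adjusted p = 0.0017). Cd74, a chaperone of MHC class II, which presents to CD4 T cells, was at 0 CPM in all 4 controls and at most 17.4 CPM in tumors.

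Of 15 interferon-stimulated genes 6 were tested in the members and all 6 rose (Ifitm3, Bst2, Xaf1, Ifi27 and Ifi27l2a among them, median log2 fold change 2.34), while 0 of 3 passed in the myelin-rich members (median 1.73). The share of all genes that were higher was 22.0% in the members and 4.70% in the myelin-rich members. Ifi27, a mitochondrial interferon-induced protein, was at 240.3, 181, 95.4 and 66.2 CPM in controls and 212, 396, 150.3, 1093 and 462 CPM in tumors. The groups overlapped (1.73 ± 0.59, adjusted p = 0.073). Free RNA differed too, as for Ifitm3, an antiviral membrane protein, at 26.5 to 48.3 CPM in controls and 105 to 535 CPM in tumors.

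The promoters of Sgk1, H2-D1 and H2-K1 are shown because, of the disease-associated and class I lists, these are the genes whose window held the glucocorticoid or NF-kB motif described here. C4b has no window. The windows are RefSeq sequence of GRCm38.p6 running from 250 bases before the gene start, 5′ to 3′ on the gene's strand, at chr10:21993640-21993889 (plus), chr17:35262844-35263093 (plus) and chr17:34000348-34000597 (minus). Capitals mark the glucocorticoid response element in Sgk1, searched as AGAACA and TGTTCT with 3 free bases between them, and the NF-kB motif in the class I genes, searched as GGGGA followed directly by TTCCC. Both strands were searched. The first motif lies in 3 of 32851 windows of all genes (0.00913%) and in 1 of the 6 start sites listed for Sgk1, 189 bases before that start. The second lies in 28 windows (0.0852%), 171 bases before the start of H2-D1 and 111 bases before that of H2-K1, and 166 of 190 aligned bases of the 2 class I windows are identical (87.4%). A match is a description of the letters and not a measured site.
Sgk1: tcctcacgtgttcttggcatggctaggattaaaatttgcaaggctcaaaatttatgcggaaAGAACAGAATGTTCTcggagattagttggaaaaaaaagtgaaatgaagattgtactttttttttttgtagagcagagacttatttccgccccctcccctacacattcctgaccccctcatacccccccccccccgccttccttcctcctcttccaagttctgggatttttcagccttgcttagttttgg
H2-D1: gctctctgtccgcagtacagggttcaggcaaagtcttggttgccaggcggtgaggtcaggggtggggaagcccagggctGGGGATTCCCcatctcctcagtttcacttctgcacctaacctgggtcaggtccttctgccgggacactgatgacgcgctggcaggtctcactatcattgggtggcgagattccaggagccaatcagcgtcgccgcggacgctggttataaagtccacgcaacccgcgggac
H2-K1: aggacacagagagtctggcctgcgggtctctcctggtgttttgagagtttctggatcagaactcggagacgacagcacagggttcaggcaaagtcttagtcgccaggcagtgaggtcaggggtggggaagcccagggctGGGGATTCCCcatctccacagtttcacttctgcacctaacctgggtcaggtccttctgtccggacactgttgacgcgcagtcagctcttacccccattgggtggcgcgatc

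Over the disease-associated list, 11 of 12 genes had a window and the glucocorticoid element was found in that of Sgk1 alone. Over the class I list, 9 of 11 had a window and the NF-kB motif was found in H2-D1 and H2-K1. The interferon-stimulated response element, searched as 2 copies of GAAA with 2 free bases between them and present in 2.98% of all windows, was found in B2m, H2-T23 and Sgk1.

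Lipid genes that supply the myelin membrane passed in the members and in the myelin-rich part of them. For comparison, 22.0% of all genes were higher in the members and 4.70% in the myelin-rich members. The 3 lipid genes that passed in the latter had no control at the level of the filter. Of 19 cholesterol synthesis genes 8 of 16 tested were higher in the tumor members (median log2 fold change 0.79) and 2 of 7 in the myelin-rich members, Fdps and Idi1 (median 0.52), with 0 falling in either. Fdps, which makes farnesyl diphosphate, was at 40.1, 76.3, 83.5 and 55.2 CPM in controls and 117, 151, 233, 252 and 95.8 CPM in tumors (1.40 ± 0.39, adjusted p = 0.037; at most 0.298 over 18 settings). Hmgcs1, the step that forms HMG-CoA, was at 167 to 521 CPM in controls and 105 to 439 CPM in tumors. Of the galactolipid and sphingolipid genes 7 of 12 were higher in the tumor members and 1 of 6 in the myelin-rich members, Gal3st1, the enzyme that sulfates galactolipid. It was at 40.1, 76.3, 71.6 and 55.2 CPM in controls and 101, 144, 269, 231 and 148 CPM in tumors, without overlap (1.52 ± 0.38, adjusted p = 0.024; at most 0.278 over 18 settings). Fa2h, which hydroxylates the fatty acid of galactolipid, was at 243 to 441 CPM in controls and 123 to 688 CPM in tumors.

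Stress genes are given by program, and a difference between programs was not tested. As background, 22.0% of all genes tested were higher and 27.0% lower in the members, and 4.70% and 7.51% in the myelin-rich members. Of the integrated stress response 3 of 6 tested rose and 1 fell in the members, and 1 of 3 passed as higher in the myelin-rich members, Ddit4, an inhibitor of mTORC1. Ddit4 was at 20.0 to 59.7 CPM in controls and 212, 237, 206, 57.0 and 166 CPM in tumors (1.91 ± 0.48, adjusted p = 0.026; at most 0.380 over 15 settings), and tumor replicate 4 lay within the controls. Without tumor replicate 4 the other tested genes of that response, Psat1 and Phgdh, also passed as higher (log2 fold change 0.92 and 1.69, adjusted p = 0.029 and 0.00053). Atf4, the transcription factor of that response, was at 71.6 to 114 CPM in controls and 51.4 to 93.5 CPM in tumors. Immediate early genes rose in 6 of 8 tested in the members and 2 of 3 passed as higher in the myelin-rich members, Jund and, through the tumors alone, Fos. Jund was at 320.5, 381, 525 and 607 CPM in controls and 860.2, 1029, 898, 645 and 958 CPM in tumors (0.96 ± 0.26, adjusted p = 0.035; at most 0.198 over 18 settings). Such genes also respond to dissociation, whose part was not tested.

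Heat shock chaperones showed 0 rises: 1 of 8 tested fell in the members and 0 of 7 passed in the myelin-rich members (median log2 fold change -0.28). The background for this and the next lists is again 22.0% higher and 27.0% lower in the members, and 4.70% and 7.51% in the myelin-rich members. Hspa8, the constitutive member, was at 1142 to 1456 CPM in controls and 436 to 953 CPM in tumors, without overlap (-0.75 ± 0.25, adjusted p = 0.067), as were 12.6% of the genes tested in this set with every tumor below every control. Hspa8 passed as lower without tumor replicate 4 (-0.73 ± 0.23, adjusted p = 0.034). Of the hypoxia and glycolysis genes 1 rose and 1 fell of 7 tested in the members, and 0 of 2 passed in the myelin-rich members. Of the iron and metabolite genes 3 rose and 3 fell of 10, and in the myelin-rich members Ftl1, a ferritin chain, rose and Pdha1 fell of 6. Ftl1 was at 573 to 651 CPM in controls and 932, 1313, 1135, 2696 and 1490.0 CPM in tumors (1.33 ± 0.31, adjusted p = 0.017; at most 0.0715 over 18 settings). The other ferritin chain, Fth1, was at 13321 to 15187 CPM in controls and 38815, 41525, 36048, 5373 and 21844 CPM in tumors, where tumor replicate 4 again stood below the controls.

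**Figure D5:**
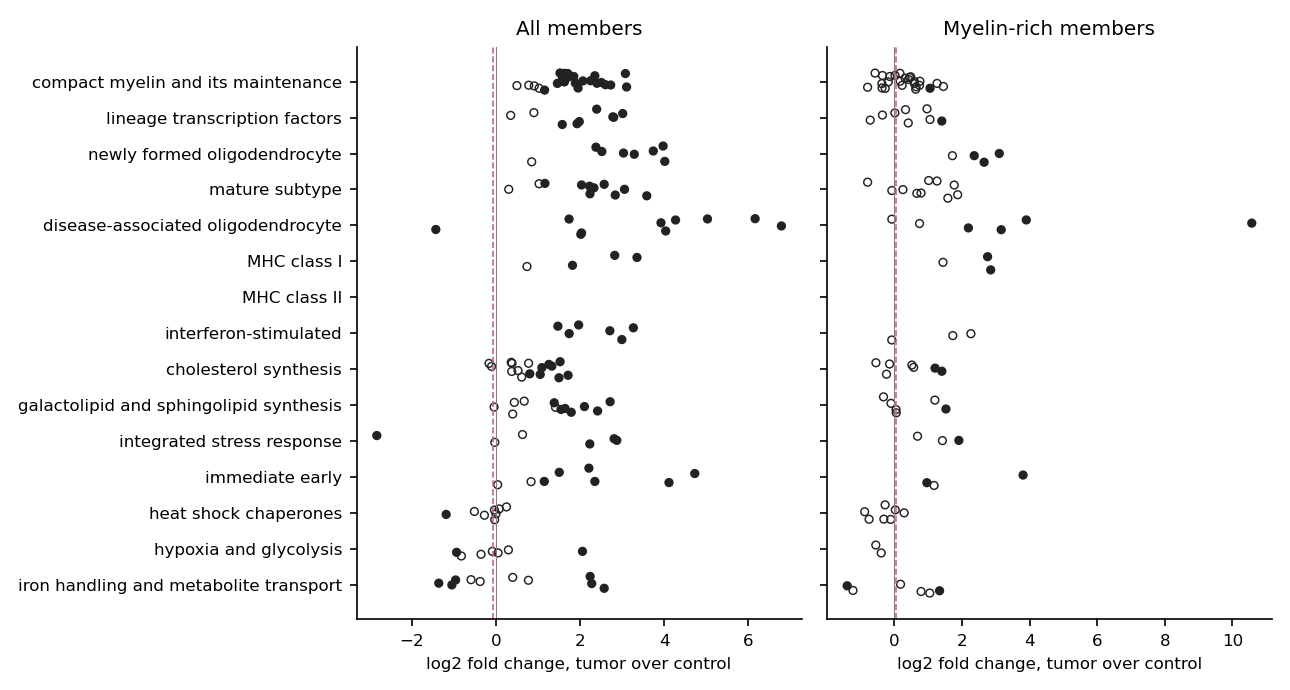
Log2 fold change of tumor over control for each tested gene of 15 lists, in the members (left) and the myelin-rich members (right). Filled points passed at an adjusted p below 0.05, open points did not, and the dashed line is the median of all genes tested (-0.05 and 0.06). Points lie right of the line in most lists on the left and in fewer on the right, and the far point in the right panel is Cdkn1a, whose controls were all at 0 so that its fitted value is no measure of size.

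By the smallest p among genes that kept their direction without any 1 mouse, the genes that rose in the myelin-rich members with controls at the level of the filter began with Sgk1, Dbndd2, H3f3a, Rplp0, Rpl10, Shisa4 and Olig1. The same order held H2-D1, Hist1h1c and Tmed2, which entered the test through the tumors alone. Dbndd2, a casein kinase binding protein, was at 961, 515, 787 and 574 CPM in controls and 2979, 3856, 2967, 1354 and 2361 CPM in tumors (1.98 ± 0.34, adjusted p = 0.0042, passing in all 18 settings). Rplp0, a ribosomal stalk protein, rose also in the free RNA, from 262 to 317 CPM in controls to 631 to 1290 CPM in tumors. In the members the order began with Acot1, Plekhf1, Olig1, Pim3, Carhsp1 and Sgk1. Pim3, a survival kinase, was at 57.2 to 99.3 CPM in the control myelin-rich members and 138 to 381 CPM in the tumor ones (1.79 ± 0.36, adjusted p = 0.0087; at most 0.129 over 18 settings).

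The genes that fell in the members included all 8 neuron genes. By the same order Penk, Epha5, Arpp21, Nme7 and Cntnap5a were among the first, and in the myelin-rich members Ppp3ca and Atp2b1, together with Nme7, Chchd10 and Zwint, which entered the test through the controls alone. Nme7 was at 240.3, 277, 298 and 209.6 CPM in the control myelin-rich members and 6.76, 19.8, 0, 9.01 and 8.71 CPM in the tumor ones. Its free RNA stood at 843 to 1071 CPM in controls and 13.96 to 70.1 CPM in tumors, above the cells in both groups. Chchd10, a mitochondrial protein, was at 334 to 448 CPM in controls and 30.0 to 81.1 CPM in tumors, with free RNA at 1030 to 1137 and 101 to 472 CPM. After the expected free RNA was subtracted neither gene was left to test.

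The last comparison asked whether tumor and control differed by the same amount in the members as in barcodes chosen by astrocyte markers from the same mice, with an interaction term and the mouse as a block. Astrocytes by the rule were kept barcodes outside the members with at least 1 UMI in 4 or more of 7 genes. The 7 genes were Aqp4, Gja1, Aldoc, Slc1a2, Slc1a3, Ntsr2 and S1pr1. Astrocyte-rich barcodes had at least 0.6% of UMIs in these genes and under 0.5% in the neuron list. In members against astrocytes by a like marker rule (12826 barcodes), 1719 of 12421 genes passed, or 13.8% (841 with the more positive change in the members, 6.77%, and 878 the reverse, 7.07%). In myelin-rich members against astrocyte-rich barcodes 116 of 6463 passed, or 1.79% (75 with the more positive change in the myelin-rich members, 1.16%, and 41 the reverse, 0.634%). Other RNA differed between the groups in the astrocyte sets as well. The neuron list was at 13423 to 15558 CPM in control astrocytes by the rule and 459 to 3777 CPM in tumor ones, and at 3414 to 3974 and 208 to 1917 CPM in the astrocyte-rich barcodes. The tumor progenitor and cycling list was at 217 to 232 CPM in control astrocyte-rich barcodes and 897 to 2241 CPM in tumor ones, and reached 8376 CPM in the astrocytes by the rule of tumor replicate 4. The part of these lists in the differences was not tested. Sgk1 rose by more in the myelin-rich members (difference of the log2 fold changes 3.31 ± 0.73, adjusted p = 0.023). The change of Ptgds was more positive there as well (3.68 ± 0.43, adjusted p = 0.00026), falling in astrocyte-rich barcodes by 2.05 ± 0.26, where it stood at 1306 to 2235 CPM in controls and 231 to 492 CPM in tumors, below its free RNA of the control libraries. H2-D1 rose by 3.24 ± 0.60 in astrocyte-rich barcodes, where 33.3% of genes passed, and the difference from the myelin-rich members was -0.04 ± 0.64 (adjusted p = 1.0). C4b rose by 3.66 ± 0.30 there, with a difference of -0.54 ± 0.89 (adjusted p = 0.88). H2-K1 (2.53 ± 0.44) and Cd9 (3.07 ± 0.36) also rose in astrocyte-rich barcodes, with differences of 0.55 ± 0.56 (adjusted p = 0.87) and -1.12 ± 0.43 (adjusted p = 0.27). In the same barcodes Serpina3n was at 0 to 4.94 CPM in controls and 30.8 to 165 CPM in tumors, and Cdkn1a at 3.31 to 12.3 and 32.9 to 309 CPM. The 95% intervals of the differences were -1.29 to 1.22 for H2-D1 and -2.28 to 1.20 for C4b. Mt3, Aldoc and Gpm6a, genes of astrocytes and neurons, headed the reverse direction together with Chchd10 and Ckb. Aldoc is 1 of the 7 genes that chose the astrocyte barcodes, so nothing is read from its value.

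Transgene sequences were counted in the myelin-rich members. UMIs of the tomato reporter sequence were found in 1 of 18, 5 of 23, 1 of 17 and 7 of 17 control myelin-rich members, or 5.56%, 21.7%, 5.88% and 41.2%, against 4.51%, 7.095%, 7.34% and 17.2% of all kept barcodes of the same libraries. Luciferase, carried with the fusion, had UMIs in 0 of 112, 8 of 129, 0 of 39, 16 of 48 and 1 of 29 tumor myelin-rich members. In tumor replicate 4 this is 33.3% (exact 95% binomial interval 20.4% to 48.4%), against 55.5% of its kept barcodes, and in tumor replicate 2 it is 6.20% (2.72% to 11.9%) against 17.5%. The 0 of 112 in tumor replicate 1 allows a share of barcodes with a UMI of up to 2.68%, at 3 counts of the total. The fusion itself had UMIs in 3 of 129 in tumor replicate 2. Free RNA holds these sequences too, so such a share is not a share of recombined cells, and intervals cover counting error only. The study describes the fusion allele as Nestin-driven, so a recombined cell that does not express the allele would hold none of its UMIs. Nes itself had no UMI in the control myelin-rich members and a mean of 13.9 CPM in the tumor ones.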

How the data were processed

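Libraries of 10x 5′ RNA from 4 control and 5 tumor mice were analysed as the deposited count matrices (whole-number UMI counts per gene and barcode), which the authors made with Cell Ranger 7 against mm10 and a custom reference with transgenes; Scanpy 1.8.2 is named in their processing notes. Tissue was dissociated, cleared on Percoll and depleted of Ter119-positive cells before loading. The matrices held 9001 to 86516 barcodes and 14967680 to 178086164 UMIs per library. The fourth control library lists 32287 gene names for 32289 rows, so its rows were named by the order of the other 8 libraries.

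Kept barcodes and members were set by the rule in the report, and doublets were kept (Scrublet removal was an alternative). The members and gene lists were chosen with earlier results of these data known, and the myelin-rich members after their levels were seen. Counts were summed per mouse, in mice with at least 20 members (10 for the myelin-rich set), filtered with filterByExpr, scaled by TMM and tested with edgeR 4.0.16 by its quasi-likelihood test, with Benjamini-Hochberg adjustment over all genes tested and a threshold of 0.05. CPM are UMIs per 1000000 UMIs of the summed members. Alternatives were DESeq2 1.42.0, limma 3.58.1, other filters and rules, free RNA subtracted, and each mouse left out. Expected free RNA was scaled so that all neuron-list UMIs of a set came from it. Shares were compared by exact permutation over all splits of the mice. Genes named are those of the lists and, per comparison, the 10 with the smallest p in each direction (5 for the interaction) that kept their direction without any 1 mouse; a few of these genes are not reported here. The code was tested on simulated data. The replicate samples are separate mice by their labels, and no 2 libraries of a group agreed within counting noise, so each was counted as 1 sample. Summed control myelin-rich members held 49930 to 104878 UMIs per mouse, where 1 UMI is 9.54 to 20.0 CPM.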

Additional observations from a re-analysis of the deposited data

Results flagged for a closer look

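In groups of 4 or 5 mice, 13 of 100 groups of values had 1 mouse far from the others by Dixon's test, which chance gives in about 1 of 20 groups. Tumor replicate 4 stood highest among tumors in the myelin-rich members for Bcas1 (2555 CPM), Enpp6 (1423), Fyn (2440.4), Sirt2 (6754), Cnksr3 (303), Bmp4 (339) and Cd9 (4956). Tumor replicate 3 stood highest for Mog (2089 CPM), and tumor replicate 2 for Serpina3n (359.7 CPM). Among controls, replicate 4 stood highest for Olig1 (342 CPM) and Cd63 (353), replicate 2 for Plin4 (9.54 CPM) and replicate 1 for Fos (40.1 CPM). Each of the last 2 rests on few UMIs.

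The change in tumors differed between the members and barcodes chosen by astrocyte markers from the same mice for the genes below, by edgeR's interaction term and given as members minus astrocytes on the log2 scale. In all members, most of which had a low myelin content in controls, it was 4.80 for Stmn4, 4.68 for Adssl1, 6.84 for Gjb1, 3.86 for Cnp and 4.19 for Tspan2, and -2.32 for Cxcl14, -4.07 for Calml4, -2.44 for Atp1b2, -4.44 for Ecrg4 and -2.41 for Lix1. In myelin-rich members against astrocyte-rich barcodes it was 3.28 for Ppp1r14a, 3.68 for Ptgds, 3.004 for Rcan2 and 2.93 for Tubb4a, and -2.27 for Chchd10, -1.34 for Ckb, -2.33 for Mt3, -2.39 for Gpm6a and -2.33 for Aldoc. Ppp1r14a and Tubb4a belong to the list that chose the myelin-rich members, and Aldoc to the genes that chose the astrocyte barcodes. In astrocyte-rich barcodes Mt3 and Aldoc rose by 2.26 and 2.18.

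Luciferase, which the comparisons of genes do not use and no control myelin-rich member held, had UMIs in 8 myelin-rich members of tumor replicate 2 and 16 of tumor replicate 4. Leaving out tumor replicate 4 changed the myelin-rich results as given in the report.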

How the results depend on the processing

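The difference in share of members turned from -2.04 points to 0.208 with 5 or more of 7 markers and 0.747 after thinning to 1000 UMIs. It was -8.63 with 3 or more markers, -2.83 over barcodes with fewer than 4 neuron markers, -1.96 without doublets, -0.718 with fewer barcodes kept per library and -0.47 at a mitochondrial limit of 10%. The exact permutation p was 0.0159 with 3 or more markers and 0.14 to 0.89 in the other settings just named. Control barcodes with 3 markers, which the former added, had a median myelin content of 0.508% to 0.624%. Over myelin-rich members the difference was 1.23, with 1.16 at a myelin limit of 3% and 1.24 without doublets. It was 0.597 over the same few barcodes with fewer than 4 neuron markers, of which the control libraries held 36 to 389 each. Leaving out each mouse gave -2.88 to -1.59, and 0.622 to 1.53 in myelin-rich members, the lowest without tumor replicate 1. Of 3589 genes that passed in the members, no filter gave 5452, 5 of 7 markers 1698, thinning 805 (of 2230 tested, with 3 tumor mice left by the minimum of 20 members) and the myelin-rich set 265; the 95 list genes became 60, 50 and 19 under the last 3, and mice left out gave 2818 to 4079 and 81 to 103. In the myelin-rich members the 265 became 1152 with no filter, which also moved the median of all genes from 0.06 to 0.42, 157 at 3% and 132 after subtraction (62 shared), and 167 to 454 with a mouse left out (167 without control replicate 2, 169 without control replicate 4, 454 without tumor replicate 4). Their 19 list genes, which include Cnp of a list that chose this set, became 7 by limma, 64 with no filter, 6 at 3%, 6 after subtraction and 4 to 33 with a mouse left out. With a mouse left out the interaction counts of 1719 and 116 ranged over 996 to 2326 and 56 to 217, lowest without control replicate 4. With no filter they were 2573 and 214. With few control members per mouse, depth limits the low genes. Of the list genes that passed, Nfasc turned direction in the members, after thinning, and 0 did in the myelin-rich members; among all list genes tested, 19 of 137 and 37 of 90 turned in some setting. In all, 77 results for genes in members and 118 in myelin-rich members no longer passed in 1 setting each, while 14 and 36 became stronger. The cause was not tested.

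Replicate numbers shared by the groups did not pair the mice (correlations of same-numbered mice in the members -0.11 to 0.12), and with a replicate block 2890 genes passed in the members, and 146 genes and 11 list genes in the myelin-rich members. Dropping members with markers of other cells was not run. It left 7, 0, 10 and 2 members in the controls, all under the minimum of 20, and 69, 97, 35, 24 and 19 in the tumors.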
